A study of Mus musculus with 30 samples.

Results

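Of the 17097 genes measured on 30 Affymetrix arrays of mouse tissue, 9 encode the interferon regulators described here: the interferon regulatory factors Irf1, Irf2, Irf3, Irf5, Irf7, Irf8 and Irf9 and the signal transducers Stat2 and Stat3. Probe sets annotated to more than 1 symbol were left out, and where several belonged to a gene (the 9 genes had 14) its brightest one on average was used. The study set mice without ClpP (labelled ClpP KO), the proteolytic subunit of a protease of the mitochondrial matrix, against wild-type littermates (WT), both on a C57BL/6 background. Total RNA came from heart, brain, skeletal muscle, liver and testis, with 3 arrays for each genotype in each tissue. Age and sex are not given in the sources used here, and the labels do not say whether replicates were separate animals or whether the same animals gave every tissue. A p-value therefore measures the spread between these samples, and 3 arrays per group limit the precision.

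Interferon regulatory factors bind DNA through a shared domain and switch interferon genes and interferon-stimulated genes on or off. Nucleic acid sensors activate Irf3, Irf5 and Irf7, which drive the interferon genes. Secreted type I interferon then acts through its receptor and JAK kinases to bring Stat2 and Irf9 into the complex ISGF3, which binds the interferon-stimulated response element of target genes, Irf7 and Irf9 among them. Interferon gamma signals to gamma-activated sites and induces Irf1, which activates targets that Irf2 restrains, and Stat3 carries signals of the interleukin-6 family. Irf8 is a factor of macrophages, B cells and dendritic cells.

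Without Clpp, Irf7 was higher in liver, muscle, brain and heart, and Irf9 was higher in heart and testis. In heart, Irf7 was 6.16-fold and Irf9 2.76-fold higher on the linear scale than in wild type. Of the 9 regulators, Irf7 was the only member called in liver, where 0.912% of all genes were called higher, in muscle, where 0.778% were, and in brain, where 0.234% were. In heart 2 members were called, both higher, against 1.11% of all genes. A gene was called at an adjusted p below 0.05, with p-values from limma and adjusted by Benjamini-Hochberg over all 17097 genes, and changes are knockout minus wild type on the log2 scale with their standard errors (SE, n = 3 arrays per genotype).

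Testis gave a different set. There 7 of 9 members were called, 6 higher (Irf1, Irf3, Irf8, Irf9, Stat2 and Stat3) and Irf2 lower, while Irf7 was not called. Fitted alone, testis gave 4 calls (Irf1, Irf8, Irf9 and Stat3), and the same 4 were left without wild-type replicate 2. Of all genes in testis, 56.2% were called, 32.8% higher and 23.4% lower, and of the 5168 genes with a mean log2 level of at least 6, 62.9% were called higher. The median change in testis was 0.02 for all genes and 0.69 for genes with a mean of at least 6. It was 0.53 for the 8548 genes above the median of the gene means, which include 7 of the members. The median of the 9 members was 0.47, and these include Irf5 and Stat2, which are not among the 8548 genes. Of the 7 that are, Irf1 (1.14), Irf8 (1.14), Irf9 (0.66) and Stat3 (1.78) lay above 0.53. Irf2 (-0.43), Irf3 (0.30) and Irf7 (0.08) lay below it. In the other tissues the members' medians were 0.11 in liver, 0.04 in muscle, 0.31 in brain and 0.51 in heart, with medians of all genes between -0.01 and 0.02.

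**Figure D1:**
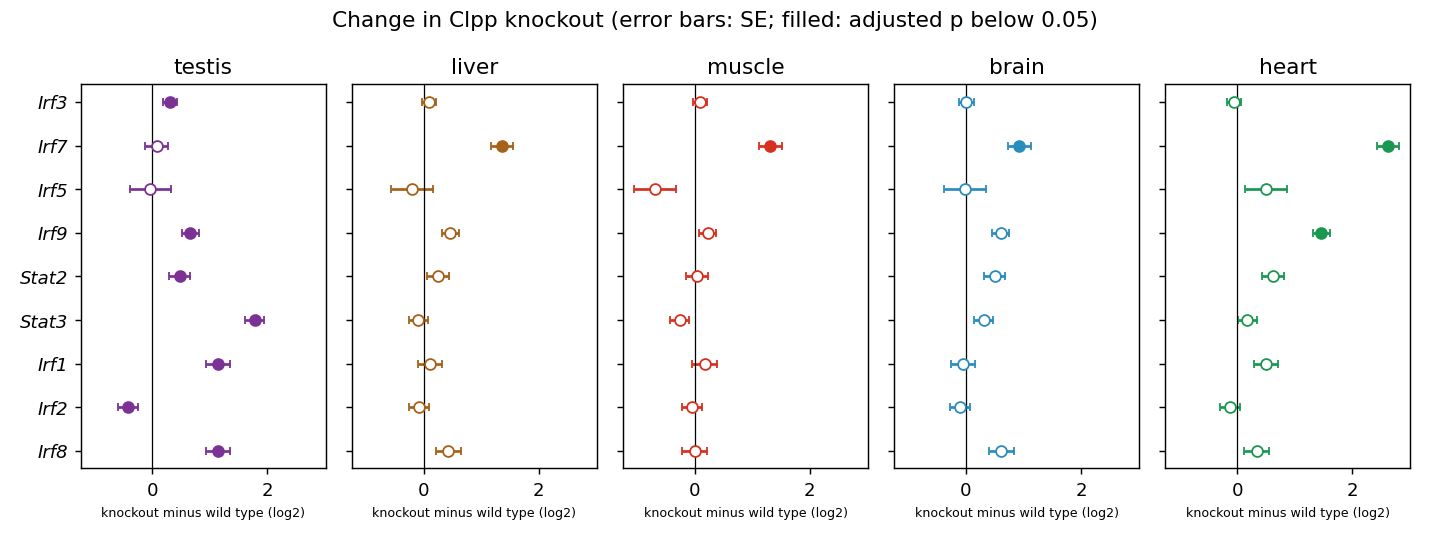
Knockout minus wild type (log2) of each regulator in each tissue. Points are fitted changes, bars are SE, and filled points have an adjusted p below 0.05. Irf7 is filled in liver, muscle, brain and heart and lies furthest right in heart at 2.62, while Stat3 lies furthest right in testis at 1.78.

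The arrays carried the labelled genotypes and tissues. Clpp was at most 3.99 on knockout and at least 5.88 on wild-type arrays, and defining markers of each tissue were high in that tissue. Array medians lay between 3.24 and 3.38, so a member near 3 was close to the low end of the scale, where a fold change understates a difference. A pair of wild-type arrays stood apart, muscle replicate 1 with sperm genes at a mean of 6.80 and testis replicate 3 with epididymis genes at a mean of 10.96. Without both, a choice made after seeing the data, Irf2 in testis was no longer called (adjusted p = 0.0999), and no other call of a member in a tissue was lost or gained.

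In wild-type mice, liver had the highest mean of the 5 tissues for each member except Irf8, which was highest in muscle. The lowest mean was in brain for Irf3, Irf5, Irf7 and Irf8 and in testis for Irf1, Irf2, Irf9, Stat2 and Stat3. From the highest to the lowest tissue the span was 3.20 ± 0.21 (SE) for Irf1, 2.91 ± 0.17 for Stat3, 2.77 ± 0.15 for Irf9 and 2.76 ± 0.19 for Stat2. It was smaller for Irf3, at 1.82 ± 0.12, and for Irf8, at 1.23 ± 0.21. When the 5 tissues were put in order for each member, 18 of 36 pairs of neighbours differed by limma at an adjusted p below 0.05, against 36.2% of such pairs over all genes.

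The order of tissues differed between members. For Irf7 it ran from liver (5.65 ± 0.31, SD, n = 3) to heart (4.51 ± 0.30), muscle (3.80 ± 0.10), testis (3.44 ± 0.46) and brain (3.27 ± 0.13). The 3 lowest did not differ between neighbours beyond their spread. For Irf9 the order was liver (6.00 ± 0.15), heart (4.47 ± 0.21), muscle (4.14 ± 0.15), brain (3.87 ± 0.21) and testis (3.22 ± 0.08). Heart, muscle and brain were not called apart between neighbours. Stat2 stood at 5.55 ± 0.26 in liver and 3.77 ± 0.34 in brain, with heart, muscle and testis below, and muscle was not called apart from heart or testis. Stat3 was alike in liver (8.25 ± 0.45) and heart (7.94 ± 0.05) within their spread, and each later step down to muscle (7.15 ± 0.11), brain (5.81 ± 0.17) and testis (5.34 ± 0.34) was called.

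Among the remaining members, Irf1 fell into the order liver, heart, muscle, brain and testis (7.84, 7.26, 6.08, 4.72 and 4.63), with no call between brain and testis. Irf2 ran from liver (6.75) to muscle (5.24), heart (4.68), brain (4.41) and testis (4.24), without a call between neighbours among the last 3. Irf3 ran from liver (8.28) to testis (7.72), heart (6.98), muscle (6.62) and brain (6.46), and the last step was not called. Irf8 differed little between muscle (5.01), liver (4.86), heart (4.77) and testis (4.64), and its step down to brain (3.77) was called. Irf5 had means from 2.80 in brain to 3.96 in liver, no step between neighbours was called, and most of its arrays lay near the array medians.

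**Figure D2:**
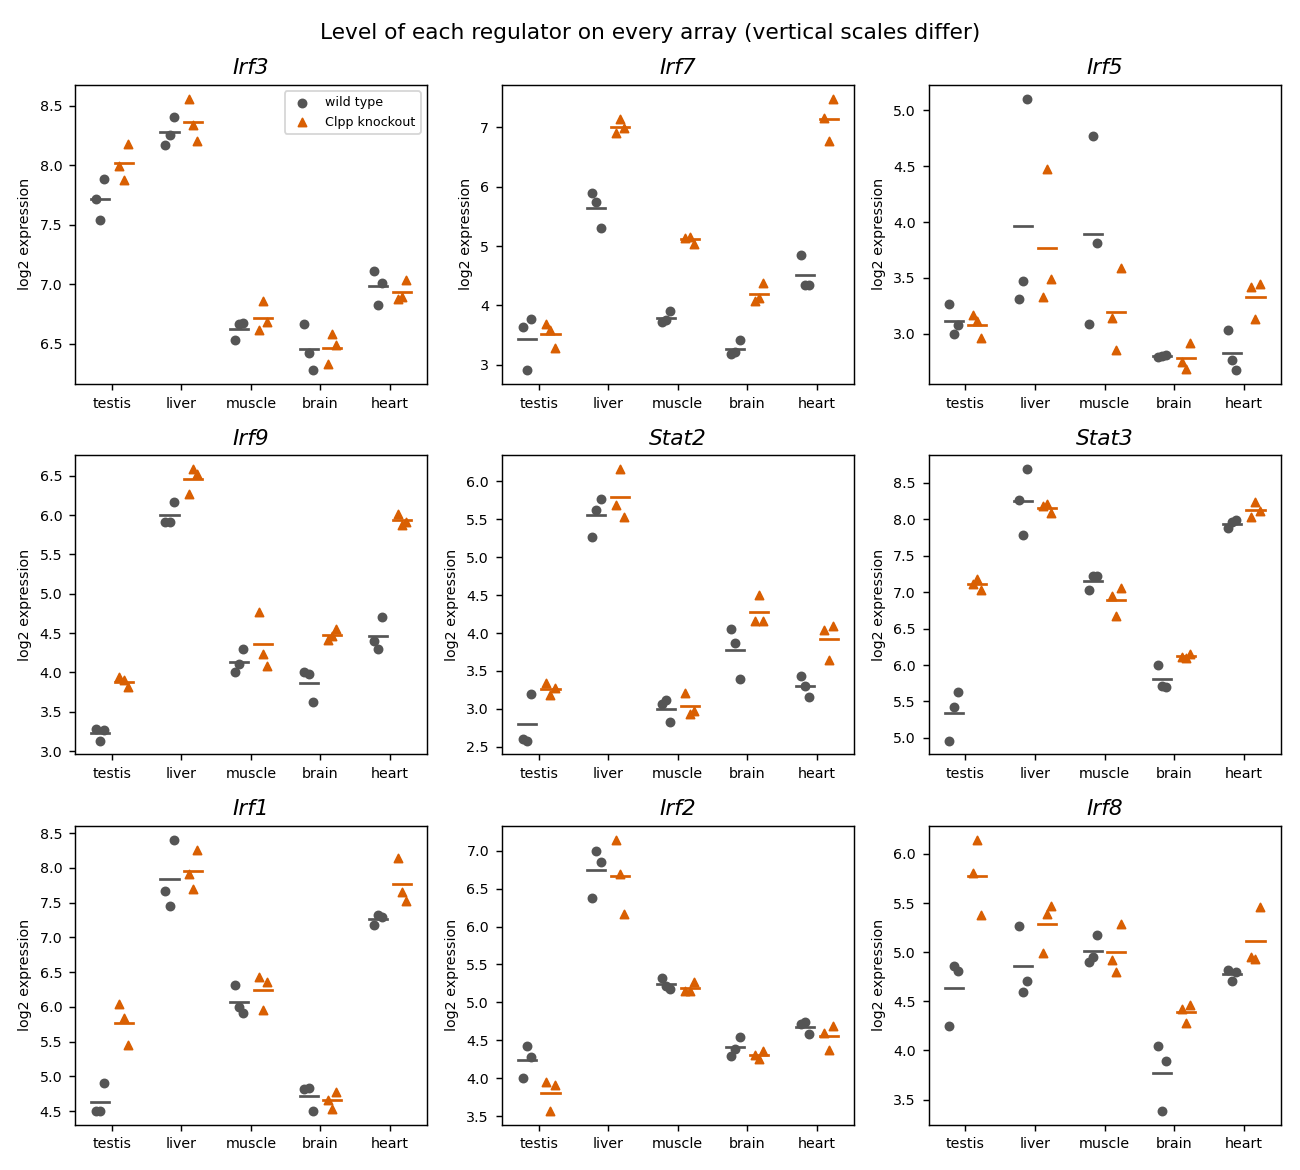
Log2 expression of each regulator on each of the 30 arrays by tissue. Circles are wild-type arrays, triangles knockout arrays and horizontal lines group means of 3 arrays, and vertical scales differ between genes. The knockout arrays of Irf7 lie above all wild-type arrays of the tissue in liver, muscle, brain and heart, and overlap with them in testis.

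Irf7 is the factor that amplifies type I interferon production once interferon signalling has begun. The 250 bases before its RefSeq transcription start (GRCm38.p6, chr7:141266425-141266674, minus strand), and those before the starts of Irf9 and Stat2 (chr14:55603735-55603984 and chr10:128270248-128270497, plus strand), are printed because these 3 genes were called higher in the mean over liver, muscle, brain and heart. Each reads 5′ to 3′ along the gene, and capitals mark the letters of an interferon-stimulated response element, GAAANNGAAA on either strand.
Irf7: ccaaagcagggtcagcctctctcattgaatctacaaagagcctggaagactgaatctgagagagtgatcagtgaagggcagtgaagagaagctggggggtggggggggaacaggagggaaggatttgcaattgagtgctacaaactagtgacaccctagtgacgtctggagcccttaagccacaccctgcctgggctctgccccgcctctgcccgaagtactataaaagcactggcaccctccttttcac
Irf9: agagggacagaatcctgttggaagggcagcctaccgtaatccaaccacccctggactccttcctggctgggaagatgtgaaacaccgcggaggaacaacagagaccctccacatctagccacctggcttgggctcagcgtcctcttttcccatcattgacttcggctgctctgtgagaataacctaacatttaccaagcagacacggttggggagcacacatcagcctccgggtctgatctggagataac
Stat2: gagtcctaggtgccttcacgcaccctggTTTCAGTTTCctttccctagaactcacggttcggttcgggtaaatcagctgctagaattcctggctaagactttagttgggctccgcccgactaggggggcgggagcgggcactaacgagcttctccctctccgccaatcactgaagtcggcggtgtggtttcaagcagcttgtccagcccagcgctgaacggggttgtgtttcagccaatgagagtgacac

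A match was present in Stat2, as GAAACTGAAA on the strand opposite the gene, 222 to 213 bases before the start, and these letters were not in the Irf7 window or in either of the 2 Irf9 windows. Of 32851 mouse windows of this length 2.98% held a match. All 9 members had a window, 12 in all, and the other member with a match was Irf2, as GAAAATGAAA 241 to 232 bases before its start. The letters of a gamma-activated site, TTCNNNGAA, were present in 7.02% of windows and in 3 members. They were TTCCCCGAA in Irf1 (90 to 82 bases before the start), TTCCGAGAA in Irf2 (224 to 216) and, in Irf8, TTCTCGGAA (171 to 163) and TTCAGAGAA (153 to 145). A match describes letters and was not tested as a binding site.

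In heart, Irf7 stood at 4.85, 4.34 and 4.34 on the wild-type arrays and at 7.16, 6.77 and 7.49 on the knockout arrays. The groups were far apart, and the rise was 2.62 ± 0.20 (limma adjusted p = 3.88e-09), the 21st largest of 17097 genes. In liver the wild-type arrays gave 5.90, 5.74 and 5.30 and the knockout arrays 6.90, 7.14 and 6.99, a rise of 1.36 ± 0.20 (limma adjusted p = 0.000121). In muscle they gave 3.72, 3.76 and 3.91 against 5.14, 5.16 and 5.04, a rise of 1.32 ± 0.20 (limma adjusted p = 0.00038). No knockout array of these tissues came within 1 log2 unit of the wild-type mean of its tissue.

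In brain, Irf7 stood at 3.17, 3.21 and 3.41 in wild type and at 4.08, 4.13 and 4.38 in knockout. Again all knockout arrays were higher, with a rise of 0.93 ± 0.20 (limma adjusted p = 0.0283), but the wild-type values were near the array medians. This call was lost when brain was fitted alone (adjusted p = 0.0627), after a second quantile normalization (adjusted p = 0.0756) and without any 1 of 5 of the 6 brain arrays (adjusted p of up to 0.197). In testis the wild-type values of 3.64, 2.91 and 3.77 overlapped with the knockout values of 3.69, 3.59 and 3.28. The testis difference was 0.08 ± 0.20 with a 95% interval from -0.33 to 0.49.

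Irf7 was 1 of 13 genes (0.076% of all) called higher in each of liver, muscle, brain and heart. Of these 13 genes, 9 were on a list of 26 ISGF3 targets, among them Usp18, Ifit1, Ifit3, Rsad2 and Oasl2, and Gbp3 was on a list of targets of interferon gamma and Irf1. Knockout arrays lay above all wild-type arrays in each of these 4 tissues for 28 genes (0.164%), and Irf7 was the member among them. Its rise differed between the 5 tissues (limma F test, adjusted p = 7.70e-07) and between the 4 tissues without testis (adjusted p = 0.00336). The rise in heart exceeded the mean of the other 4 tissues by 1.70 ± 0.22 (limma adjusted p = 2e-05), and that in testis was below the mean of the others, at -1.48 ± 0.22 (limma adjusted p = 2.67e-06).

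Of the other factors that act directly below the sensors, Irf3 was called in testis and Irf5 in no tissue. Irf3, the constitutive factor that starts interferon beta transcription, rose in testis, with knockout arrays at 8.0, 7.87 and 8.18 and wild-type arrays at 7.72, 7.54 and 7.89. The ranges overlapped, and the rise was 0.30 ± 0.12 (limma adjusted p = 0.0412). Elsewhere Irf3 was not called, at 0.09 in liver and muscle, 0.01 in brain and -0.05 in heart, and the widest 95% bounds of these were -0.30 and 0.35. The Irf3 probe set used carries a suffix for probes that can match other transcripts, and the other 2 Irf3 probe sets also rose in testis, by 0.38 and 0.91 (limma over all probe sets with 1 symbol, adjusted p = 0.0079 and 0.00564). Leaving out testis knockout replicate 1 or 3 or testis wild-type replicate 1 or 2 ended the call (adjusted p of up to 0.198), as did array weights (adjusted p = 0.0819), testis fitted alone (adjusted p = 0.0995) and a block for the replicate number (adjusted p = 0.0612).

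Irf5, which drives inflammatory cytokine genes below Toll-like receptors, was called in no tissue, with an unadjusted p above 0.05 in each. Its changes ran from -0.69 ± 0.36 in muscle to 0.51 ± 0.36 in heart. In heart its knockout arrays (3.42, 3.13 and 3.45) lay above the wild-type arrays (3.03, 2.77 and 2.67), all near the array medians. Its arrays varied most in wild-type liver, wild-type muscle and knockout liver, where the highest arrays stood at 5.11, 4.77 and 4.47 and the lowest at 3.31, 3.08 and 3.33.

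Irf9, the DNA-binding subunit of ISGF3, had the second largest rise of the members in heart. Its wild-type heart arrays stood at 4.40, 4.30 and 4.70 and its knockout heart arrays at 6.01, 5.88 and 5.92. The gap between the groups exceeded the range within either, and the rise was 1.46 ± 0.15 (limma adjusted p = 3.91e-07), which exceeded the mean of the other tissues by 0.98 ± 0.16 (limma adjusted p = 0.000294). In testis the arrays gave 3.28, 3.13 and 3.26 in wild type and 3.94, 3.90 and 3.81 in knockout, a rise of 0.66 ± 0.15 (limma adjusted p = 0.00035).

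In liver and brain all knockout arrays of Irf9 were above the wild-type arrays, without a call. The liver values were 5.92, 5.91 and 6.16 against 6.27, 6.59 and 6.52, a difference of 0.46 ± 0.15 (limma adjusted p = 0.0987). The brain values were 4.01, 3.98 and 3.63 against 4.41, 4.47 and 4.55, a difference of 0.61 ± 0.15 (limma adjusted p = 0.0748). With array weights both were called (adjusted p = 0.023 in liver and 0.032 in brain), and both were also called without muscle knockout replicate 1 (adjusted p = 0.0413 and 0.0178), an array of another tissue that enters through the shared estimate of spread. The brain call was also gained without muscle knockout replicate 3 (adjusted p = 0.0465) or brain wild-type replicate 1 (adjusted p = 0.0453). In muscle the groups overlapped, at 4.01, 4.10 and 4.30 against 4.77, 4.24 and 4.08, and the change of 0.23 ± 0.15 was below the mean of the other tissues (difference -0.57 ± 0.16, limma adjusted p = 0.0184). The change of Irf9 differed between the 5 tissues (limma F test, adjusted p = 0.000175) and between the 4 without testis (adjusted p = 0.00336).

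Stat2, the STAT subunit of ISGF3, was highest in liver, where the knockout did not separate from wild type. In heart its arrays stood at 3.44, 3.31 and 3.16 in wild type and 4.04, 3.65 and 4.09 in knockout, and in brain at 4.05, 3.87 and 3.40 against 4.16, 4.50 and 4.16. Both tissues had all knockout arrays on the higher side, and neither was called, at 0.63 ± 0.19 in heart (limma adjusted p = 0.0858) and 0.50 ± 0.19 in brain (adjusted p = 0.445). The heart difference was called with array weights (adjusted p = 0.0443) and after a second quantile normalization (adjusted p = 0.0478). In testis the rise of 0.47 ± 0.19 was called (limma adjusted p = 0.0366) although the ranges overlapped, at 2.60, 2.58 and 3.20 against 3.34, 3.19 and 3.27. It was called without wild-type replicate 3 (adjusted p = 0.0045) and lost without any 1 of the other 5 testis arrays (adjusted p of up to 0.158). A second Stat2 probe set, with a mean of 3.25, gave -0.09 in testis. With the mean of both probe sets the testis change was 0.19 and not called (adjusted p = 0.233). Elsewhere the second probe set gave 0.23 in heart, 0.08 in brain, 0.17 in liver and 0.27 in muscle, none called. In liver the change of Stat2 was 0.24 ± 0.19 and in muscle 0.04 ± 0.19, with overlap in both.

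Averaged over liver, muscle, brain and heart, 3 members were called higher, where 1.47% of all genes were. Irf7 rose by 1.56 ± 0.10 (limma adjusted p = 4.99e-11), Irf9 by 0.69 ± 0.07 (adjusted p = 8.39e-07) and Stat2 by 0.35 ± 0.09 (adjusted p = 0.034). Leaving out any 1 of 9 arrays ended the Stat2 call (adjusted p of up to 0.0678). Irf8 was at 0.34 ± 0.11 and missed the threshold (limma adjusted p = 0.0704), which it passed with array weights (adjusted p = 0.0301), a second quantile normalization (adjusted p = 0.0482) or the mean over its probe sets (adjusted p = 0.0324), and without liver wild-type replicate 1 (adjusted p = 0.0319), and Irf1, Irf2, Irf3, Irf5 and Stat3 lay between -0.10 and 0.18. Averaged over all 5 tissues, 6 members were called higher (Irf1, Irf7, Irf8, Irf9, Stat2 and Stat3), against 17.1% of all genes. Irf3 was added to these with the mean over its probe sets (adjusted p = 0.0318) or without its shared probe sets (adjusted p = 0.00138).

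Stat3, which carries interleukin-6 and related signals and drives acute phase genes, changed in testis alone among the 5 tissues by the call rule. Its wild-type testis arrays stood at 4.96, 5.42 and 5.63 and its knockout arrays at 7.12, 7.18 and 7.03. The knockout arrays were tightly grouped above the wild-type range, and the rise of 1.78 ± 0.17 (limma adjusted p = 9.2e-10) was 3.42-fold on the linear scale. It exceeded the mean of the other 4 tissues by 1.74 ± 0.18 (limma adjusted p = 1.13e-08), a comparison in which 55.5% of all genes were called for testis. Stat3 in knockout testis came to 7.11, against 5.81 in wild-type brain and 7.15 in wild-type muscle.

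Outside testis, Stat3 changed by -0.09 ± 0.17 in liver, -0.26 ± 0.17 in muscle, 0.31 ± 0.17 in brain and 0.18 ± 0.17 in heart, none called. In brain (6.00, 5.71 and 5.70 against 6.11, 6.09 and 6.16) and heart (7.88, 7.96 and 7.98 against 8.03, 8.23 and 8.11) the knockout arrays were all higher, by less than the threshold required. Compared with the mean of the other tissues, the Stat3 change was lower in muscle (-0.81 ± 0.18, limma adjusted p = 0.00466) and in liver (-0.59 ± 0.18, adjusted p = 0.0323), and both means include testis. Of all genes, 15.8% were called in that comparison for muscle, 14.3% for liver, 14.8% for heart and 10.4% for brain, where no member was called. Between the 5 tissues the Stat3 change differed (limma F test, adjusted p = 3.19e-07), and between the 4 without testis it did not pass (adjusted p = 0.452). A second Stat3 probe set lay near the array medians (mean 3.09) and was not called in testis (-0.03).

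Irf1, the activator induced by interferon gamma, rose in testis from 4.50, 4.50 and 4.90 to 6.04, 5.84 and 5.45. The groups were apart and the rise was 1.14 ± 0.21 (limma adjusted p = 4.59e-05). In heart all knockout arrays (8.14, 7.66 and 7.52) were above the wild-type arrays (7.18, 7.32 and 7.29), at 0.51 ± 0.21 without a call (limma adjusted p = 0.264). In liver (0.11), muscle (0.17) and brain (-0.06) the groups overlapped, each with an SE of 0.21. The change in testis exceeded the mean of the others by 0.96 ± 0.24 (limma adjusted p = 0.00118).

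Irf2, which binds the same sites as Irf1 and mostly restrains them, was the only member called lower in knockout testis. It fell from 4.0, 4.43 and 4.27 to 3.95, 3.56 and 3.91. The groups came close without overlapping, and the change was -0.43 ± 0.18 (limma adjusted p = 0.0434). The call was lost with each tissue fitted alone (adjusted p = 0.0546), with a trended robust prior (adjusted p = 0.0542), with array weights (adjusted p = 0.0691) and without testis wild-type replicate 2 (adjusted p = 0.174), wild-type replicate 3 (adjusted p = 0.0937) or knockout replicate 2 (adjusted p = 0.209). In the other tissues Irf2 lay between -0.12 and -0.05 with overlap.

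Irf8, a lineage factor of macrophages, B cells and dendritic cells, rose in testis, from 4.25, 4.86 and 4.81 in wild type to 5.81, 6.15 and 5.38 in knockout. The groups were apart, with a rise of 1.14 ± 0.21 (limma adjusted p = 5.63e-05). In brain it stood at 4.04, 3.38 and 3.90 against 4.43, 4.28 and 4.46, and in heart at 4.82, 4.71 and 4.80 against 4.95, 4.93 and 5.46. Both tissues had knockout arrays on the higher side without a call, at 0.62 ± 0.21 in brain (limma adjusted p = 0.375) and 0.34 ± 0.21 in heart (adjusted p = 0.55). A second Irf8 probe set gave 1.56 in testis and 0.70 in heart, and both were called (limma over all probe sets with 1 symbol, adjusted p = 2.81e-09 and 0.0145). That probe set gave 0.46 in liver, 0.18 in brain and -0.44 in muscle, none called (limma adjusted p = 0.132, 0.892 and 0.162). In liver Irf8 was at 0.43 ± 0.21 and in muscle at 0.00 ± 0.21, with overlap. Over the 5 tissues the changes of Irf1 (limma F test, adjusted p = 0.0103) and Irf8 (adjusted p = 0.0312) differed, and 5 members passed that test, against 52.3% of all genes. The result of Irf8 was lost after a second quantile normalization (adjusted p = 0.115) and without any 1 of 6 testis or muscle arrays (adjusted p of up to 0.108). Among the 4 tissues without testis 2 members passed, Irf7 and Irf9, against 1.66% of all genes, and Irf8 also passed with its most variable probe set (adjusted p = 0.0177).

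Counting arrays rather than calls, all 3 knockout arrays lay above all 3 wild-type arrays for 7 of 9 members in heart (each except Irf2 and Irf3), where this held for 7.73% of all genes. In brain it held for 5 members (Irf7, Irf8, Irf9, Stat2 and Stat3) against 9.18% of all genes, and in testis for 4 (Irf1, Irf8, Irf9 and Stat3) against 35.3%. In liver 2 members were so placed (Irf7 and Irf9) against 7.9%, and in muscle Irf7 against 9.36%. The reverse placement, with all knockout arrays lower, occurred for Irf2 in testis, where 28.2% of all genes showed it.

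The genes around the regulators were taken from lists of their pathway. Of 9 measured interferon genes, Ifnb1, Ifng and 7 alpha or related genes, none was called in any tissue by limma, and each stood near the bottom of the scale (list means of 2.43 to 2.76 on single arrays, below the array medians). Of 6 receptor chains, 4 rose in testis, among them Ifnar1 by 1.24 ± 0.20, Ifnar2 by 1.41 ± 0.16 and Il10rb by 2.06 ± 0.16, and none was called elsewhere. Of 8 JAK kinases and other STATs, 3 rose in testis, with Jak1 at 1.99 ± 0.12, and 2 fell, with Stat4 at -4.76 ± 0.23, and none was called elsewhere. For these 8 genes both shares lay near those of all genes in testis, where 32.8% were called higher and 23.4% lower. Of 4 further genes, Irf4 and 3 coding for proteins that bind Irf2, those 3 rose in testis (Irf2bp2 by 1.69 ± 0.20) and none elsewhere.

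Among 13 inhibitors of JAK-STAT signalling, Usp18, a protease that removes Isg15 and blocks the type I interferon receptor, rose in all 5 tissues. Its rise was 4.06 ± 0.19 in heart, 2.20 ± 0.19 in brain, 2.03 ± 0.19 in liver and 1.88 ± 0.19 in muscle, and no other inhibitor was called in these 4 tissues. In testis 4 of the 13 inhibitors rose and 4 fell, where 32.8% of all genes were called higher and 23.4% lower. The largest changes there were Pias1 at -1.97 ± 0.13, Ptpn11 at 1.90 ± 0.14 and Pias4 at -1.56 ± 0.17. Socs1, which blocks JAK kinases, fell in testis from 3.11 to 2.72 (-0.39), below the array medians, and was not called elsewhere. Of 17 sensors and kinases upstream of Irf3 and Irf7, Ifih1, a sensor of double-stranded RNA, rose in heart (1.43 ± 0.21), muscle (1.06 ± 0.21) and testis (1.30 ± 0.21). In testis 5 of the 17 rose and 2 fell, and the largest change was the fall of Dhx58 (-2.03 ± 0.17). In heart Zbp1 was also called (0.99 ± 0.21), in liver Dhx58 (0.71 ± 0.17) and Ikbke (0.57 ± 0.15) rose and Tank fell (-0.45 ± 0.12), and in brain none of the 17 was called. The median change of that list was 0.20 in brain, 0.15 in liver, 0.11 in heart and 0.09 in muscle.

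Of 26 ISGF3 targets, 13 rose in liver, 15 in muscle, 13 in brain and 14 in heart, with none lower in these tissues and medians of 0.84, 0.74, 0.82 and 0.81. The shares of all genes called higher were 0.912% in liver, 0.778% in muscle, 0.234% in brain and 1.11% in heart. In testis 12 rose and 2 fell, with a median of 0.38, where 32.8% of all genes were called higher. Ifit1, an RNA-binding antiviral protein, rose by 3.86 ± 0.19 in heart, 2.73 ± 0.19 in brain, 2.23 ± 0.19 in muscle and 1.83 ± 0.19 in liver. In liver, muscle and brain these targets rose while Irf9 and Stat2 were not called, although array weights gave a call of Irf9 in liver and brain.

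Of 18 targets of interferon gamma and Irf1, 11 rose in heart, 8 in brain, 4 in muscle and 3 in liver, none fell, and in testis 13 rose and 1 fell. The shares of all genes called higher were 1.11% in heart, 0.234% in brain, 0.778% in muscle, 0.912% in liver and 32.8% in testis. Igtp, a GTPase of cell-autonomous defence, rose by 2.16 ± 0.32 in heart, 1.53 ± 0.32 in brain and 1.29 ± 0.32 in liver, while Irf1 was not called in these tissues. Of 22 Stat3 targets, 9 rose and 2 fell in testis, a share of risers near the 32.8% of all genes, with Timp1, an inhibitor of metalloproteases, at 3.06 ± 0.24. In liver 2 fell, among them the acute phase gene Saa2 at -2.78 ± 0.53, in muscle 2 fell (Hp at -2.49 ± 0.61 and Osmr at -0.67 ± 0.15), in heart Myc rose (1.71 ± 0.42), and in brain none was called. Among all 17097 genes, 413 were called in either direction in liver, 263 in muscle and 372 in heart. These lists overlap in members, and Usp18 stood on both the inhibitor list and the ISGF3 list.

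**Figure D3:**
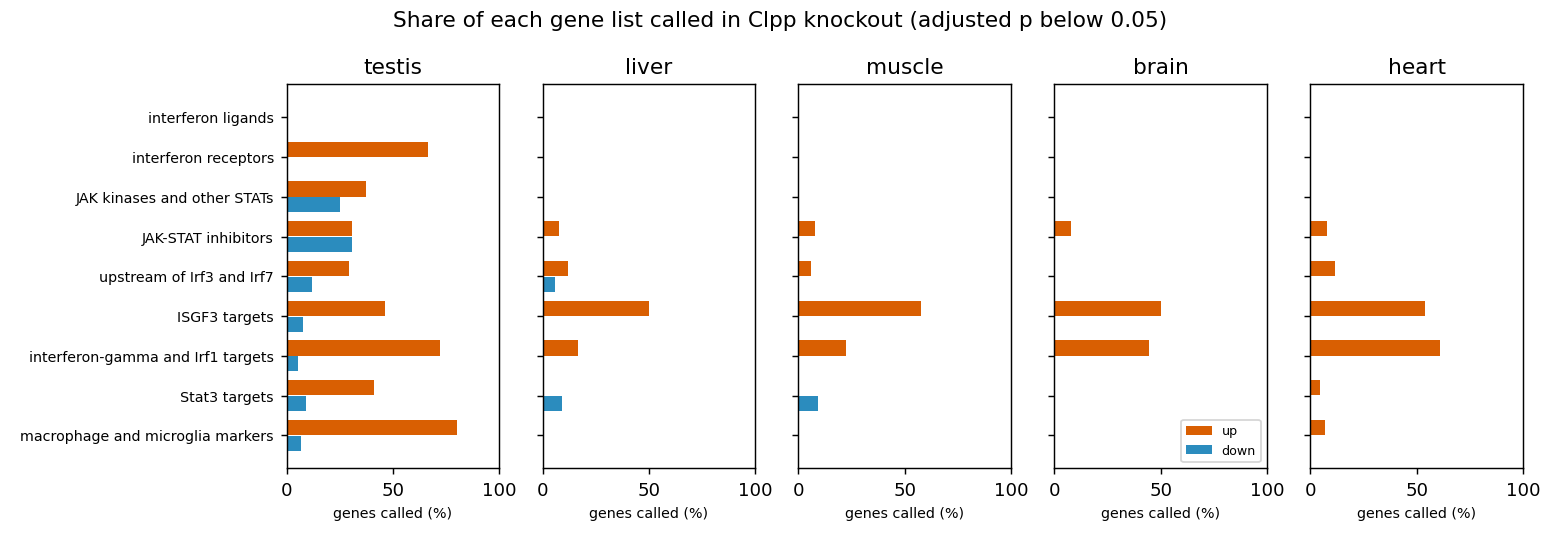
Share (%) of the measured genes of each pathway list called higher (orange) or lower (blue) in Clpp knockout, by tissue. The ISGF3 targets have orange bars in all tissues, with 13 to 15 of 26 genes in liver, muscle, brain and heart, and the interferon ligands have no bar.

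Each array's ISGF3 target level was set beside its Irf7 and Irf9 level, each taken as the difference from the wild-type mean of the tissue. In heart the median of the targets was 0.81 to 0.98 on the knockout arrays and -0.12 to 0.11 on the wild-type arrays, with Irf7 at 2.25 to 2.97 and Irf9 at 1.41 to 1.54 on the knockout arrays. In brain the targets reached 0.66 to 1.11 with Irf7 at 0.81 to 1.11 and Irf9 at 0.54 to 0.68, and in liver 0.82 to 0.95 with Irf7 at 1.25 to 1.49 and Irf9 at 0.28 to 0.59. In muscle they reached 0.52 to 0.86 with Irf7 at 1.24 to 1.36 and Irf9 at -0.06 to 0.64, and in testis 0.20 to 0.54 with Irf7 at -0.16 to 0.25 and Irf9 at 0.59 to 0.71. The target medians of the knockout arrays thus overlapped between brain and heart, while their Irf7 and Irf9 values did not, and whether the tissues differ in this relation was not tested.

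**Figure D4:**
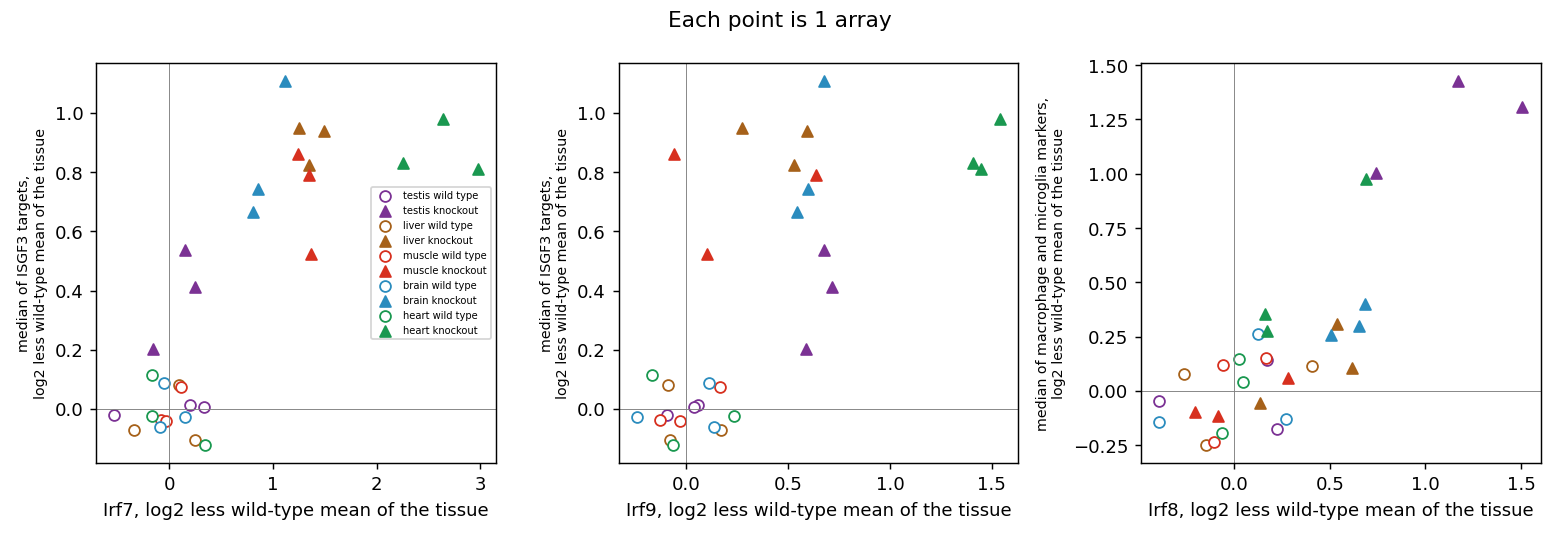
Each point is 1 array, and each axis is a log2 level less the wild-type mean of the tissue. The left and middle panels set the median of 26 ISGF3 targets against Irf7 and Irf9, and the right panel sets the median of 15 macrophage and microglia markers against Irf8, with open circles for wild type and triangles for knockout. In the left panel the heart triangles lie furthest right, at 2.25 to 2.97, and the testis triangles lie at -0.16 to 0.25.

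Markers of macrophages and microglia, cells that express Irf8, moved in some of the tissues. In testis, where 32.8% of all genes were called higher, 12 of 15 rose and Aif1 fell, with a median of 1.28. The mean level of the 15 was 5.39 to 5.69 on knockout arrays against 4.44 to 4.72 on wild-type arrays. In heart Fcer1g was called, 7 of 15 had all knockout arrays on the higher side (7.73% of all genes did), and the mean level was 5.78 to 6.48 against 5.34 to 5.69. In brain 5 of 15 had that placement with none called, against 9.18% of all genes, and the mean level was 5.08 to 5.24 against 4.73 to 5.17. In liver 1 of 15 had it, near the 7.9% of all genes (5.02 to 5.36 against 4.82 to 5.12), and in muscle none (3.95 to 4.28 against 3.78 to 4.37). No defining marker was listed at 0, since the scale has no zero level, and Itgam was below 3 in each group. Of 6 measured B cell markers, Cd79b was called in heart (0.69 ± 0.17), and in testis 1 rose (Cd74, also an antigen presentation gene of other cells, at 1.43) and 1 fell (Pax5, at -0.39), with mean levels of 3.14 to 3.23 on knockout and 3.04 to 3.15 on wild-type arrays. Of 3 markers of plasmacytoid dendritic cells, 2 rose in testis, Ly6d and Tcf4 (mean of the 3 at 4.51 to 4.82 against 3.91 to 4.06) and none was called elsewhere. Of 6 T cell markers none was called in any tissue. The part of these cells in the changes of Irf8 and the other members was not tested.

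In testis the 6 sperm genes all fell, from a mean of 12.8 to 8.87, beside the rises of Stat3, Irf1, Irf8, Irf9, Irf3 and Stat2. In bulk tissue fewer cells of a type and less RNA per cell cannot be told apart. The gap between 3′ and 5′ probe sets of Gapdh, a sign of RNA quality, was 0.55 ± 0.04 (SD, n = 3) in knockout testis and 0.98 ± 0.17 in wild-type testis, and its part in the changes was not tested. In heart, liver genes averaged 4.20 to 4.44 on knockout and 2.92 to 3.44 on wild-type arrays, against 12.8 in liver itself, and Alb stood at 6.76 in knockout and 4.04 in wild-type heart (limma adjusted p = 0.0514). Irf7 reached 7.14 in knockout heart and 7.01 in knockout liver, and the part of liver RNA in the heart values was not tested.

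Over the 24 arrays of liver, muscle, brain and heart, each less its tissue mean, the genes most like Irf7 were Usp18 (Pearson r of 0.96), Ifit1 (0.95) and Ifit2 (0.94). For Irf9 they were Ifi27 (0.94), Usp18 (0.91) and Aars (0.90), the last coding for the cytosolic alanyl-tRNA synthetase. Stat2 was closest to Zc3hav1 (0.81), H2-D1 (0.77) and H2-T10 (0.76), and Irf8 to Rpl23 (0.78), Ifi27l2a (0.73) and Arhgap30 (0.72). Irf7 and Irf9 had an r of 0.86 with each other, Irf9 and Stat2 of 0.75, and Irf7 and Stat2 of 0.64. These values describe arrays of both genotypes, so a shared change with genotype enters each of them. Irf3, Irf2 and Stat3 had an r with Irf7 of 0.08, -0.22 and 0.04, and the genes most like them, Mrpl23 (0.71), Nenf (0.76) and Gm19696 (0.76), were not on the lists of interferon targets.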

How the data were processed

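The deposited values are log2 expression per probe set, made by the authors with RMA in R 2.14.0 per the submitters' processing notes, for 30 arrays of 5 mouse tissues. Whether all arrays went through RMA together is not given in the sources used here. Of 45141 probe sets, 28898 had 1 gene symbol in the platform annotation, 551 several and 15692 none, and those with 1 were used. The linear model (limma 3.58.1, R 4.3.3) held the 10 group means of 17097 genes and left 20 residual degrees of freedom. Contrasts were two-sided and adjusted by Benjamini-Hochberg within each, and further probe sets of a member were read from the same model over all 28898. The code was tested on simulated data.

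The members, lists and tests were chosen with earlier results of these data known. All members are named. Most other genes named from a list were among the up to 3 called genes per tissue with the largest changes. Only genes whose arrays do not overlap between genotypes could enter these. Genes named as most like a member were among its 3 closest by Pearson r over 24 arrays. Only genes with a mean of at least 6 in some group were compared. Not every gene that met these rules is named. Socs1, Ifnb1, Ifng, Irf4, Alb and a few markers were named after their values were seen. Promoter windows are RefSeq's (GRCm38.p6). Separate fits by tissue, the replicate number or the animal as a block, the prior, array weights, quantile or median scaling, dim genes, the choice of probe set and single arrays were varied. The main fit did not pair arrays by replicate number. In no tissue were all 3 correlations between same-numbered knockout and wild-type deviations above 0.1 (range -0.28 to 0.40). With 3 arrays per genotype in a tissue this does not show that pairing was absent.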

Additional observations from a re-analysis of the deposited data

Results flagged for a closer look

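The knockout effect differed between tissues for 5 of the 9 regulators by a limma F test over the 5 tissues. Of all genes, 52.3% passed that test, a share near that of the members. The adjusted p was 7.70e-07 for Irf7, 0.000175 for Irf9, 3.19e-07 for Stat3, 0.0103 for Irf1 and 0.0312 for Irf8. Irf7 rose in liver, muscle, brain and heart and not by the call rule in testis, and Stat3, Irf1 and Irf8 rose in testis alone by that rule. For Irf8 this holds for the probe set used, and a second Irf8 probe set was also called in heart (0.70, limma adjusted p = 0.0145). Among liver, muscle, brain and heart the effect differed for Irf7 (adjusted p = 0.00336) and Irf9 (adjusted p = 0.00336), against 1.66% of all genes. The highest values of both were in heart. Irf8 also passed this test with its most variable probe set (adjusted p = 0.0177). Groups of 3 arrays are too small for a test of single outlying arrays.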

How the results depend on the processing

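Of 724 changes of a member recomputed under 12 alternatives, 687 kept their direction and their side of the threshold, 13 lost the call, 10 gained it and 14 turned sign. None of the sign changes concerned a called value. With each tissue fitted alone the count of called members was 4 in testis and 0 in brain, where fewer arrays set the spread. With the replicate block it was 0 in brain, and 10 neighbouring pairs of wild-type tissues were called. Under the replicate block the adjusted p was 0.0907 for Irf7 in brain, 0.0612 for Irf3 in testis and 0.105 for Irf2 in testis, and no other call of a member's knockout change was lost. A second quantile normalization gave 0 in brain. Array weights gave 2 in liver and 2 in brain, and turned Irf5 in liver to 0.33, Stat3 in liver to 0.10, Irf3 in brain to -0.076 and the mean of Irf5 over 4 tissues to 0.0064. The second quantile normalization turned Irf5 in testis to 0.00083, Irf2 in muscle to 0.082, Irf8 in muscle to 0.12 and Irf3 in heart to 0.0028. Other probe sets turned Irf3: the mean of all gave 0.079 in heart, the most variable gave -0.32 in muscle, -0.049 in brain, 0.19 in heart and -0.042 in the mean over 4 tissues, and leaving out shared probe sets gave 0.093 in heart. The cause was not tested.

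Leaving out each of 30 arrays gave 4 to 7 called members in testis, 1 to 2 in liver and 0 to 2 in brain. The following changes crossed 0 on leaving out single arrays. In testis Irf7 ranged from -0.19 to 0.24 and Irf5 from -0.091 to 0.041. In liver Irf3 ranged from -0.0060 to 0.17, Irf5 from -0.55 to 0.37, Irf1 from -0.085 to 0.40, Irf2 from -0.32 to 0.18 and Stat3 from -0.32 to 0.13. In muscle Stat2 ranged from -0.049 to 0.10 and Irf8 from -0.15 to 0.10. In brain Irf3 ranged from -0.079 to 0.12, Irf5 from -0.085 to 0.032 and Irf1 from -0.16 to 0.0057, and in heart Irf3 from -0.13 to 0.015. Over 4 tissues the mean of Stat3 ranged from -0.021 to 0.092 and that of Irf5 from -0.20 to 0.043, and over 5 tissues that of Irf5 from -0.17 to 0.028.

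With each tissue alone, 31 genes in all were called in liver instead of 413, 15 in muscle instead of 263, 25 in brain instead of 71 and 83 in heart instead of 372. Array weights called 1146 genes in heart and 190 in brain. The replicate block called 137 genes in muscle and 41 in brain. The filter on dim genes left 7 members (without Irf5 and Stat2) of 8548 genes, and called 6393 genes in testis and 46 in brain. Without the pair of arrays that stood apart, 174 genes were called in muscle. The deposited values carry no detection calls, which limits what can be read from members near the array medians, which include Irf5 in most groups, Stat2 in testis, muscle and wild-type heart, Irf7 in testis and wild-type brain and Irf9 in wild-type testis, and so the called changes of Irf7 in brain and of Irf9 and Stat2 in testis.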
